A study of Mus musculus with 6 samples.

Results

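A set of 10 genes of protein folding in the endoplasmic reticulum (ER) and of the unfolded protein response was followed in bone of aged mice on 2 diets. The genes were Hspa5, Hsp90b1, Calr, Pdia4, Sdf2l1, Dnajb9, Herpud1, Atf4, Ddit3 and Xbp1, taken by gene name from a deposited table of 32000 genes, and each name matched 1 gene. The study sequenced polyadenylated RNA in bulk from male C57BL/6J mice, 18 months of age, that had received a chewing diet (CD, the standard chow of the study) or a high-fat diet (HFD) for 12 months. There were 3 libraries per group, CD 1, CD 2 and CD 4 against HFD 2, HFD 3 and HFD 4. The labels name no transgene or targeted allele, and both groups shared strain, sex, age and feeding time. The labels name cortical bone as the tissue, while the study speaks of bone particles in its results and of marrow cells in its methods, and transcripts of osteoblasts, marrow cells and muscle were all counted. Whether each library came from a separate animal is not given in the labels, so a p-value here reflects only the variation among these libraries, which may be technical.

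Proteins that are secreted or set into membranes are folded in the ER, where chaperones hold unfolded chains and disulfide isomerases pair their cysteines. When unfolded chains build up, the sensors IRE1, PERK and ATF6 start the unfolded protein response. IRE1 splices Xbp1 mRNA into the form that codes for an active transcription factor, PERK slows translation in general while favouring that of Atf4 mRNA, and ATF6 is cut to release a factor that acts on chaperone genes. Gene counts do not show splicing, translation or cleavage, so they report only the transcript levels of these regulators. In bone the response is known from osteoblasts, which export large amounts of collagen, and from plasma cells of the marrow, which export antibody and need XBP1.

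Several genes of the set carry known stress elements in their promoters, and these are printed here because their holders include the 3 most abundant genes of the set. RefSeq promoters of 300 bases, 250 before and 50 after the gene start, were searched on both strands in build GRCm38.p6, and all 10 genes had an entry. The ER stress response element (ERSE), made of CCAAT and CCACG parted by 9 bases, is read by ATF6 together with NF-Y and stood in the promoters of Hspa5, Hsp90b1 and Calr, against 0.119% of 32851 promoters. The related ERSE-II, made of ATTGG and CCACG parted by 1 base, stood in the Herpud1 promoter, against 0.0365% of promoters. In the lines below the ERSE or ERSE-II letters are in capitals, each line reads 5′ to 3′ on the strand of its gene, and only bases before the deposited gene model are shown for Hsp90b1, Calr and Herpud1. For Hspa5, whose deposited model begins 120 bases before the RefSeq start and so takes in the element, a window of 30 bases is given.
Hspa5, chr2:34772020-34772049, plus strand: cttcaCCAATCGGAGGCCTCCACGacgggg
Hsp90b1, chr10:86705510-86705694, minus strand: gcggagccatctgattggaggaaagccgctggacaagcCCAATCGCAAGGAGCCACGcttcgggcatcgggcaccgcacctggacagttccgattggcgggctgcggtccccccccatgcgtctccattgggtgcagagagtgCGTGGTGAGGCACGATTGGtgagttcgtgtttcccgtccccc
Calr, chr8:84846935-84847181, minus strand: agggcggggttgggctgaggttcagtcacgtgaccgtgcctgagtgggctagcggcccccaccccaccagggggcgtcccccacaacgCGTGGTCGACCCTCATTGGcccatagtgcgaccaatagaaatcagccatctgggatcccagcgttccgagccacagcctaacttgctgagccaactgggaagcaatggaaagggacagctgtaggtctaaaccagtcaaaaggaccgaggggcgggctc
Herpud1, chr8:94386179-94386428, plus strand: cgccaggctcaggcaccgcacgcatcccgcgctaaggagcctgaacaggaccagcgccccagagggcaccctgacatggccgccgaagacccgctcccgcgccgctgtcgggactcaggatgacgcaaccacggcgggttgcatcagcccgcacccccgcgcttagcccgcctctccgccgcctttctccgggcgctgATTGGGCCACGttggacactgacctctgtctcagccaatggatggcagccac
The Hspa5 element lay 65 to 47 bases before the RefSeq start, reading with the gene. Hsp90b1 had 2 elements, 212 to 194 bases before the start with the gene and 107 to 89 bases before it on the opposite strand. The Calr element lay 162 to 144 bases before the start on the opposite strand, and the Herpud1 element 52 to 42 bases before the start with the gene. The XBP1 and ATF6 core TGACGTG, present in 2.01% of promoters, was matched in Hspa5, and the ATF4 and CHOP element core TGATGNAA, present in 3.97%, in Herpud1. No match to these 4 motifs was found in the windows of Pdia4, Sdf2l1, Dnajb9, Atf4, Ddit3 and Xbp1. A match describes the letters of the window and not binding.

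All 10 genes were expressed in every library, with counts between 350 (Sdf2l1 in CD 1) and 35374 (Hsp90b1 in CD 2). Ordered by mean FPKM over the 6 libraries, which scales counts by transcript length, 3 ER chaperones came first, Calr at 117, Hsp90b1 at 93.8 and Hspa5 at 89.7. All 3 lay in the top 1.57% of the 19831 genes tested. Atf4 followed at 78.2, then Xbp1 at 34.2, Herpud1 at 33.0 and Pdia4 at 31.0. Dnajb9 stood at 14.8, Sdf2l1 at 13.1 and Ddit3, in the top 19.5%, at 8.64. The SD of FPKM over the CD libraries was 56.2 for Calr, 48.0 for Hsp90b1 and 39.7 for Hspa5, wider than the gaps between them. Neighbours in the order from Hspa5 to Atf4, from Xbp1 to Pdia4, and from Dnajb9 to Sdf2l1, likewise lay within their spread.

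The question put by the design is what a year of high-fat feeding does to gene expression in old bone. None of the 10 genes passed the test between diets, and the HFD and CD libraries overlapped for every gene. The fitted level under HFD was lower for 6 genes, Hspa5, Hsp90b1, Calr, Pdia4, Dnajb9 and Atf4, and higher for 4, Sdf2l1, Xbp1, Ddit3 and Herpud1. The log2 fold changes (HFD minus CD throughout) ran from -0.48 for Pdia4 to 0.35 for Sdf2l1, with a median of -0.19 over the 10 genes against -0.03 over all genes tested. Within the set, Hspa5, Hsp90b1, Calr and Pdia4 were highest in CD 2 and CD 4. Of the transcription factor genes, Atf4 was nearly level over the 6 libraries, and Xbp1 and Ddit3 were highest in HFD 3. Levels below are TMM-scaled CPM (normalised CPM, the share of a gene in its library after scaling between libraries), and folds, standard errors (SE) and p-values are from edgeR's quasi-likelihood test with Benjamini-Hochberg adjustment over all 19831 genes.

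edgeR called 0 of the 10 genes and 0% of all genes at an adjusted p of 0.05, and the smallest adjusted p of any gene was 0.466. At an unadjusted p under 0.05 it counted 0 of the 10 against 9.66% of all genes, and groups that did not overlap were seen for 0 of the 10 against 15.2%. DESeq2 called 0 of the 10 against 1.73% of 17477 genes (0.578% higher and 1.16% lower), and limma on log2(FPKM + 1) called 0 of the 10 against 0.0669% of 14940 genes. A lower fitted level was found for 6 of the 10, near the 52.5% of all genes. All 10 absolute log2 fold changes were under 0.5, as were 60.4% of all, with a median absolute value of 0.31 in the set and 0.37 over all genes tested.

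**Figure D1:**
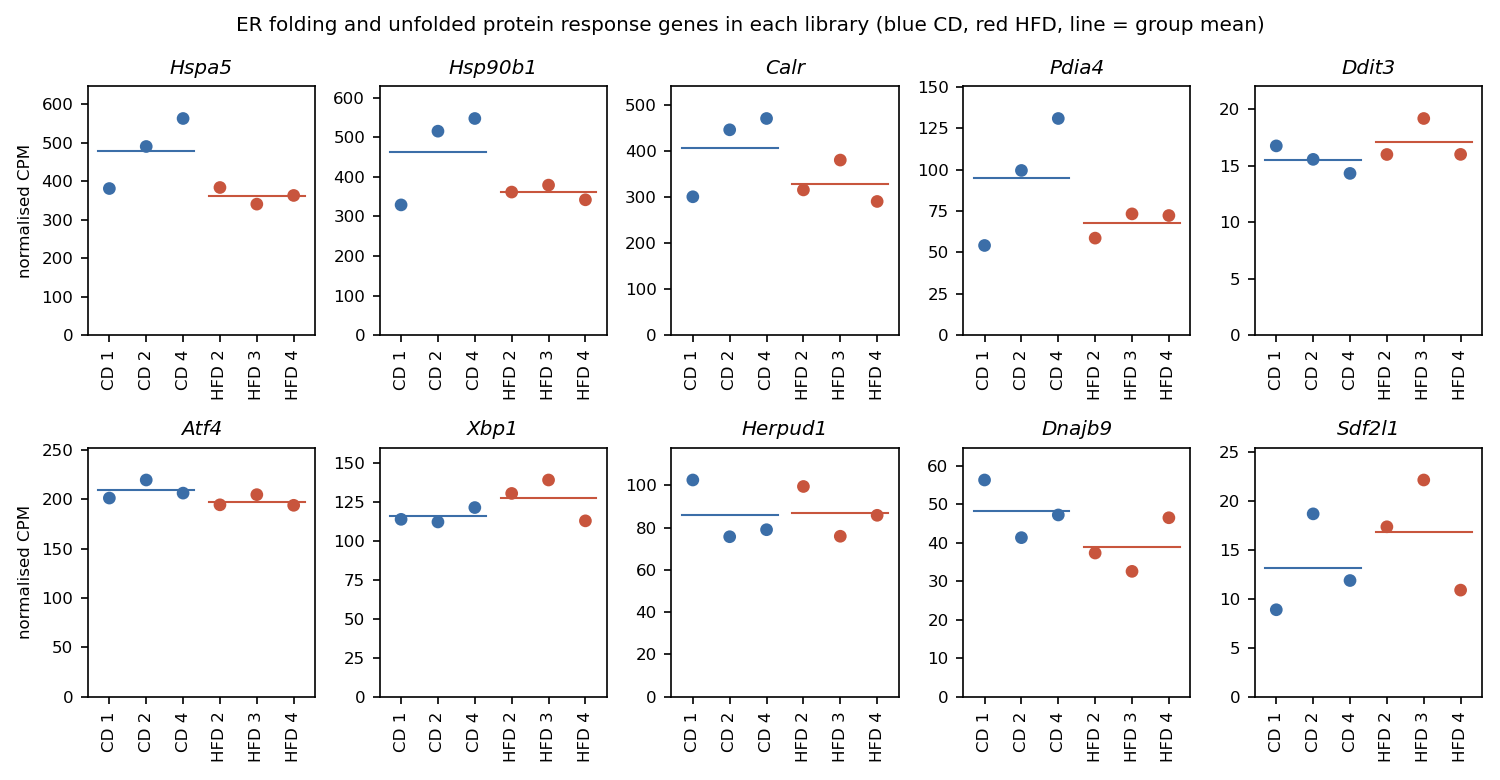
Normalised CPM (vertical axis, from 0) of each of the 10 genes in the 6 libraries (horizontal axis), CD in blue and HFD in red, with a line at each group mean. Hspa5, Hsp90b1, Calr and Pdia4 are highest in CD 4 and CD 2 while CD 1 sits within or below the HFD libraries, and Atf4 stays between 194 and 219.6 in all 6.

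Hspa5 (ENSMUSG00000026864, chr2:34771970-34777547) encodes BiP, the HSP70 chaperone of the ER that also holds the stress sensors inactive. Its normalised CPM was 381, 489.8 and 563 in CD 1, CD 2 and CD 4 and 383, 340.1 and 363 in HFD 2, HFD 3 and HFD 4. CD 2 and CD 4 were above every HFD library, and CD 1 lay among them. The means were 478 ± 91.6 for CD and 362 ± 21.6 for HFD (SD, n = 3 each). The log2 fold change was -0.40 ± 0.29 (SE, 95% interval -1.08 to 0.28, edgeR adjusted p = 0.685), and it was -0.20 without CD 4.

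Hsp90b1 (ENSMUSG00000020048, chr10:86690209-86705509) encodes GRP94, the HSP90 of the ER, which folds integrins and Toll-like receptors. It stood at 329, 516 and 548 normalised CPM in CD 1, CD 2 and CD 4, and at 362, 379 and 342 in HFD 2, HFD 3 and HFD 4. Here CD 1 was the lowest of all 6 libraries while CD 4 and CD 2 were the highest. Its log2 fold change was -0.36 ± 0.31 (SE, 95% interval -1.09 to 0.36, edgeR adjusted p = 0.729), which became -0.17 without CD 4 and -0.55 without CD 1. In GENCODE M21, 10.3% of the exon bases of Hsp90b1 are shared with the opposite-strand gene 1810014B01Rik, and reads there cannot be assigned unless the counting used strand, which was not settled.

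Calr (ENSMUSG00000003814, chr8:84841850-84846934) encodes calreticulin, a calcium-binding chaperone for glycoproteins. Its normalised CPM was 300.1, 445 and 469.9 in CD 1, CD 2 and CD 4 and 315, 379.7 and 289.9 in HFD 2, HFD 3 and HFD 4. CD 2 and CD 4 again stood above all HFD libraries, and CD 1 was between HFD 4 and HFD 2. For Calr this gave a log2 fold change of -0.30 ± 0.30 (SE, 95% interval -1.02 to 0.41, edgeR adjusted p = 0.767), against -0.13 without CD 4 and -0.47 without CD 1.

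Pdia4 (ENSMUSG00000025823, chr6:47796141-47813430) encodes ERp72, a protein disulfide isomerase. It had the widest range of the 4 relative to its level, from 54.2 normalised CPM in CD 1 over 99.5 in CD 2 to 131 in CD 4, while the HFD libraries stood at 58.6 (HFD 2), 73.3 (HFD 3) and 72.3 (HFD 4). Lowest and highest library were thus both CD, and the coefficient of variation was 40.7% over CD and 12.0% over HFD. The log2 fold change of -0.48 ± 0.34 (SE, 95% interval -1.27 to 0.31, edgeR adjusted p = 0.678) was the most negative of the set. It depended on the choice of CD libraries, at -0.12 without CD 4 and -0.76 without CD 1, and at -0.94 where CD 4 alone was set against HFD, with adjusted p-values of edgeR above 0.05 in each.

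The other genes of ER folding did not share this order of libraries. Sdf2l1 (ENSMUSG00000022769, chr16:17130138-17132383) encodes a soluble ER protein that works with BiP and its J-domain partners. Its normalised CPM was 8.89, 18.7 and 11.9 in CD 1, CD 2 and CD 4 and 17.4, 22.2 and 10.9 in HFD 2, HFD 3 and HFD 4, so HFD 3 and CD 2 were highest and CD 1 and HFD 4 lowest. This gave a log2 fold change of 0.35 ± 0.37 (SE, 95% interval -0.51 to 1.22, edgeR adjusted p = 0.779), the most positive of the set. It was 0.69 without CD 2 and 0.59 without HFD 4, but 0.15 without CD 1 and 0.10 without HFD 3. Dnajb9 (ENSMUSG00000014905, chr12:44205559-44210326) encodes ERdj4, a J-domain partner of BiP and a known target of XBP1. It stood at 56.3, 41.3 and 47.2 in CD 1, CD 2 and CD 4 and 37.3, 32.5 and 46.5 in HFD 2, HFD 3 and HFD 4. CD 1 was high and HFD 3 low, with HFD 4 between the values of CD 2 and CD 4. Its log2 fold change was -0.32 ± 0.23 (SE, 95% interval -0.85 to 0.22, edgeR adjusted p = 0.685), from -0.18 without CD 1 to -0.47 without HFD 4.

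Herpud1 (ENSMUSG00000031770, chr8:94386438-94395377) encodes HERP, a membrane protein of ER-associated degradation (ERAD) that helps to gather the ubiquitin ligase complex. Its normalised CPM was 102.5, 75.7 and 79.0 in CD 1, CD 2 and CD 4 and 99.4, 75.9 and 85.8 in HFD 2, HFD 3 and HFD 4. Each group held 1 high library, CD 1 and HFD 2, and the means of 85.7 ± 14.6 and 87.0 ± 11.8 (SD, n = 3 each) were nearly equal. The log2 fold change was 0.02 ± 0.23 (SE, 95% interval -0.52 to 0.56, edgeR adjusted p = 0.979), and it turned negative without CD 2 (-0.06) and without HFD 2 (-0.08).

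Among the transcription factors, Atf4 (ENSMUSG00000042406, chr15:80255184-80257541) is translated when PERK or the other kinases of the integrated stress response phosphorylate eIF2α. It varied least of the set over HFD, with normalised CPM of 201, 219.6 and 206 in CD 1, CD 2 and CD 4 and 194, 205 and 194 in HFD 2, HFD 3 and HFD 4. The highest HFD library lay inside the CD range, and the coefficient of variation was 4.53% over CD and 3.08% over HFD. The log2 fold change of Atf4 was -0.08 ± 0.22 (SE, 95% interval -0.61 to 0.45, edgeR adjusted p = 0.921), and it was 0.17 when libraries were scaled by their totals alone and 0.20 in limma on FPKM, scalings under which the median of all genes tested moved to 0.24 and 0.19.

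Ddit3 (ENSMUSG00000025408, chr10:127290774-127296288) encodes CHOP, the factor downstream of ATF4 that favours apoptosis under lasting ER stress. It was the least abundant of the set per length, at 16.8, 15.6 and 14.3 normalised CPM in CD 1, CD 2 and CD 4 and 16.0, 19.2 and 16.0 in HFD 2, HFD 3 and HFD 4. HFD 3 was above the rest, and CD 1 was above HFD 2 and HFD 4. For Ddit3 the log2 fold change was 0.13 ± 0.20 (SE, 95% interval -0.34 to 0.61, edgeR adjusted p = 0.844), and 0.04 without HFD 3. GENCODE M21 has a second model with this symbol, absent from the deposited table, that shares 6.13% of the exon bases of Ddit3. Mars on the opposite strand shares 3.97%. How many reads of Ddit3 fell on these shared bases is not known.

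Xbp1 (ENSMUSG00000020484, chr11:5520659-5525893) encodes the factor made active by IRE1 splicing, which drives the secretory pathway. Its normalised CPM was 114, 112 and 121 in CD 1, CD 2 and CD 4 and 130.4, 139 and 113 in HFD 2, HFD 3 and HFD 4. HFD 3 and HFD 2 were above every CD library, but HFD 4 lay between CD 2 and CD 1. Xbp1 had a log2 fold change of 0.14 ± 0.21 (SE, 95% interval -0.36 to 0.64, edgeR adjusted p = 0.847), which was 0.07 without HFD 3 and 0.23 without CD 4.

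**Figure D2:**
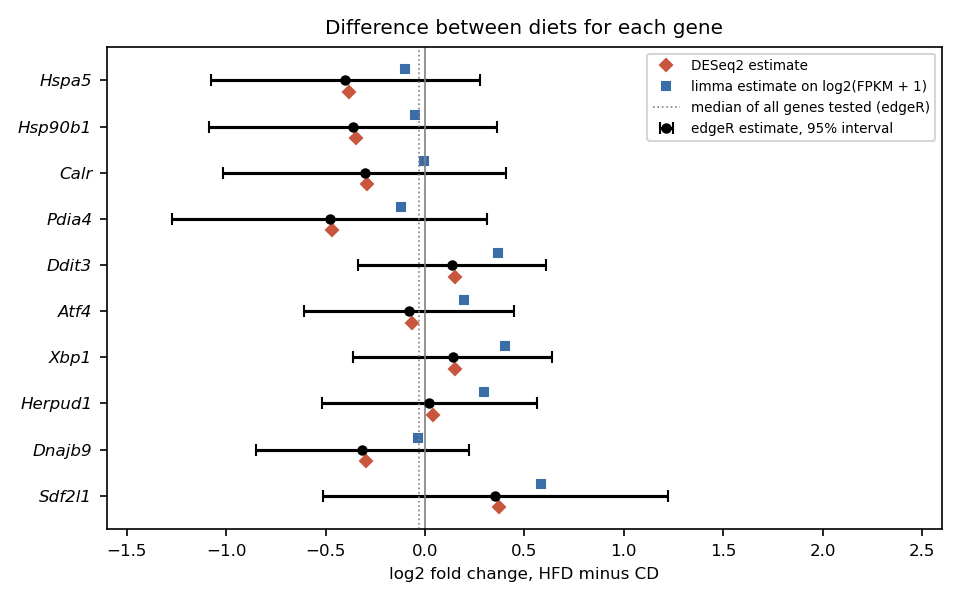
Log2 fold change, HFD minus CD (horizontal axis), of each gene from edgeR with its 95% interval (black), from DESeq2 (red diamonds) and from limma on log2(FPKM + 1) (blue squares), with the median of all genes tested as a dotted line at -0.03. Every interval includes 0, and the limma estimates, on a scale where the median of all genes is 0.19, lie to the right of the edgeR estimates.

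Set against each other within a library, the folding genes and the transcription factors showed the division of the CD group again. Hspa5, Hsp90b1, Calr and Pdia4 together made 76.3% of the summed normalised CPM of the set in CD 2 and 78.1% in CD 4. The same share was 68.1% in CD 1 and 69.3%, 70.4% and 69.6% in HFD 2, HFD 3 and HFD 4, so CD 1 lay just below the HFD libraries. The FPKM ratio of Pdia4 to Xbp1 was 0.645, 1.20 and 1.46 in CD 1, CD 2 and CD 4 and 0.609, 0.714 and 0.868 in HFD 2, HFD 3 and HFD 4. The ratio of Hspa5 to Atf4 was 1.05, 1.24 and 1.52 against 1.10, 0.926 and 1.04 in the same order. For both ratios CD 2 and CD 4 were highest and CD 1 lay within the HFD range. The ratio of Ddit3 to Atf4, which compares transcript levels only, was 0.114, 0.0974 and 0.0956 in CD 1, CD 2 and CD 4 and 0.113, 0.129 and 0.114 in HFD 2, HFD 3 and HFD 4. CD 2 and CD 4 were the lowest here, and CD 1 again lay within the HFD range. These ratios were formed after the values had been seen and are given without a test.

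The libraries differed in ways that touch these genes. Total counts were 54.5 to 61.6 M (mega-counts), but the 37 mitochondrially encoded genes took 15.7% to 38.7% of them in CD and 15.8% to 39.3% in HFD. Before TMM scaling the set took 1001, 2516 and 2066 CPM of all counts in CD 1, CD 2 and CD 4 and 2037, 2127 and 1269 in HFD 2, HFD 3 and HFD 4. Without the mitochondrial counts these became 1632, 2983 and 2903 against 2419, 2529 and 2092, and CD 1 and HFD 4 remained the lowest. Between the 3 libraries of lower mitochondrial share (CD 2, HFD 2 and HFD 3) and the other 3, Sdf2l1 did not overlap and was higher where the share was lower, as were 14.3% of all genes, and Dnajb9 did not overlap and was lower there, as were 8.47%. With the mitochondrial share as a covariate the log2 fold change of Sdf2l1 was 0.21 and that of Dnajb9 -0.24.

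Markers of several cell types differed between libraries along with some genes of the set, and in bulk tissue fewer cells of a type cannot be told apart from less RNA per cell. All marker sums here are in normalised CPM, the scale used for the genes of the set. The 12 of 12 osteoblast and osteocyte markers, with none at 0 in any library, summed to 5514, 17099 and 72681 in CD 1, CD 2 and CD 4 and 2746, 1030 and 6547 in HFD 2, HFD 3 and HFD 4. CD 4 and CD 2 were highest, as for Hspa5, Hsp90b1, Calr and Pdia4, and CD 1 lay between HFD 2 and HFD 4. Col1a1 and Col1a2, the chains of type I collagen, made 71.4% to 94.9% of this sum, and without them it was 827, 1507 and 3680 against 267, 294 and 906 in the same order. The osteocyte genes Sost and Mepe did not follow it, being highest in HFD 4 at 52.7 and 68.7 and lowest in HFD 2 at 3.74 and 4.51. With the log2 level of the whole sum (in CPM of all counts) as a covariate, the edgeR estimates were -0.08 for Hspa5, 0.01 for Hsp90b1, -0.05 for Calr and 0.22 for Pdia4.

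Other lists divided the libraries in ways of their own. The 7 chondrocyte markers were also highest in CD 4 (791) and CD 2 (681), with CD 1 at 359.6 and the HFD libraries at 34.2 to 221. The 6 endothelial markers were at 507, 369 and 514.5 in CD 1, CD 2 and CD 4 and at 215 to 406 in HFD. Skeletal muscle markers were highest in CD 1 at 86065, against 15367 in CD 4. A covariate from these lists was not fitted, and their part in the values of the set was not tested.

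The 14 plasma cell markers in the table, also with none at 0, summed to 1411, 2336 and 1069.8 in CD 1, CD 2 and CD 4 and 2012, 5223 and 1996 in HFD 2, HFD 3 and HFD 4, so HFD 3 was highest, as for Sdf2l1, and CD 4 lowest. Ighm, which B cells also express, made 76.1% of the sum in HFD 3 and 33.0% in CD 2. Without Ighm the highest library was CD 2 at 1566, with HFD 3 next at 1247, and Igha, Ighg2b and Ighg2c were each highest in CD 2. Of the 14 markers 5 had a lower fitted level under HFD. The 8 B cell markers and the 8 macrophage and monocyte markers had the same highest and lowest libraries as Sdf2l1, at 478 and 785 in HFD 3 and 60.5 and 370 in CD 1, and all 8 B cell markers were fitted higher under HFD. All 5 neutrophil progenitor and 8 mature neutrophil markers divided the libraries as Sdf2l1 did, with CD 2, HFD 2 and HFD 3 above the rest. The progenitor sum was 481, 1328 and 415 in CD 1, CD 2 and CD 4. It was 1608, 1422 and 665 in HFD 2, HFD 3 and HFD 4. With the log2 plasma cell sum (in CPM of all counts) as a covariate the estimate of Sdf2l1 was -0.20, and no covariate was fitted for the other lists.

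Of 18 intestinal epithelium markers, 11 were at 0 in at least 1 library, and their sum was 95.9, 103 and 253 in CD 1, CD 2 and CD 4 and 293, 422 and 388 in HFD 2, HFD 3 and HFD 4. The single markers divided the libraries otherwise than the diets did. Clca1, a goblet cell gene, had counts of 0 in CD 1 and CD 2, 792 in CD 4 and 800 to 813 in HFD, and Krt20, a keratin of the gut lining, had 3, 4, 636 and 639 to 659 in the same order. CD 4 thus stood with the HFD libraries for these markers, and Car1 and Tspan8 made 83.8% of the sum in CD 1 and 86.0% in CD 2. Car1 did not follow Clca1 and Krt20. Its counts were 1667, 5133 and 2596 in CD 1, CD 2 and CD 4 and 5636, 16790 and 5096 in HFD 2, HFD 3 and HFD 4. The sum therefore mixes these patterns and is not a measure of gut transcripts alone. With the log2 of the sum (again in CPM of all counts) as a covariate the estimates moved the other way, to -0.77 for Hspa5, -0.93 for Hsp90b1, -0.90 for Calr and -1.37 for Pdia4, and no adjusted p of edgeR was under 0.05. Where CD 4 alone was set against HFD, a fit that assumes it to vary like the HFD libraries, they were -0.63, -0.60, -0.52 and -0.94. The osteoblast and osteocyte sum had a mean of 31073 ± 33616 in CD and 3401 ± 2053 in HFD (CPM of all counts, SD, n = 3 each). CD 4 stood at 68531, while CD 1, at 3531, lay within the HFD range of 1315 to 5420. A fit with such a covariate cannot separate the cell type from the diet. The part of any of these cell types in the values of the set was not tested.

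**Figure D3:**
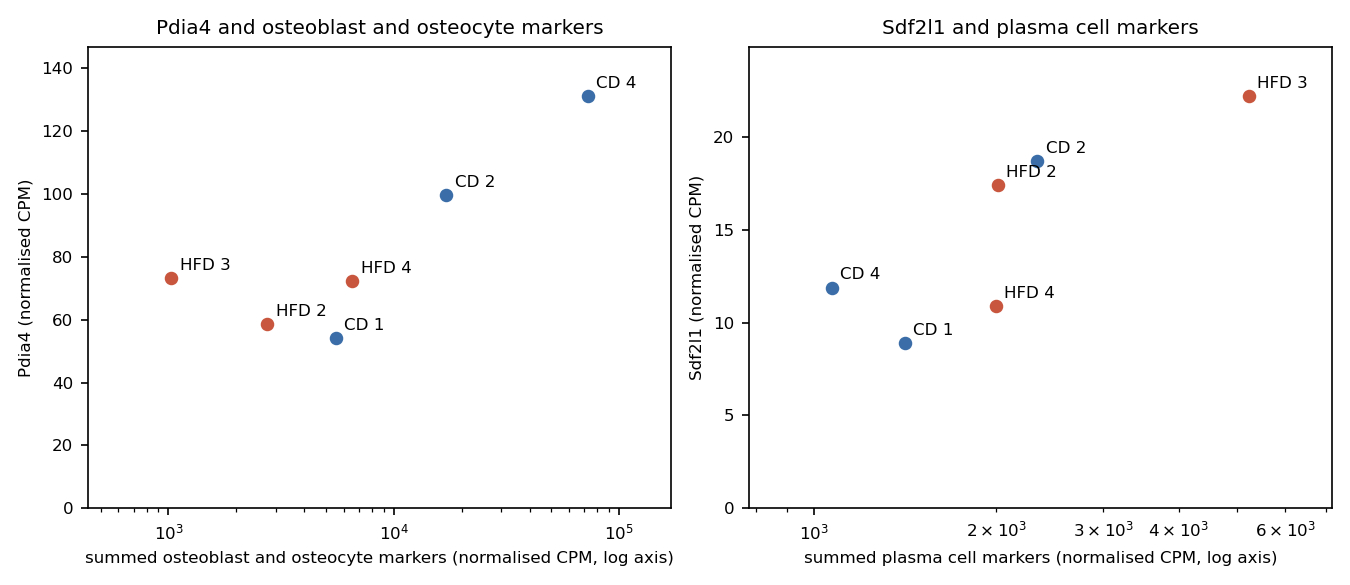
Left, normalised CPM of Pdia4 against the summed normalised CPM of 12 osteoblast and osteocyte markers on a log axis; right, normalised CPM of Sdf2l1 against the summed normalised CPM of 14 plasma cell markers on a log axis, each point a library labelled by name (CD blue, HFD red). CD 4 and CD 2 hold the highest values of both quantities on the left, and HFD 3 does on the right, while CD 1 is lowest for Pdia4 and for Sdf2l1 but for neither marker sum.

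Around the set, 7 lists of neighbouring pathways held 185 genes of the table, and edgeR called 0 genes in each. The ER chaperone and folding enzyme list had 36 genes tested, of which 12 were fitted higher under HFD and 24 lower, with a median log2 fold change of -0.24. At an unadjusted p under 0.05 there were 0 higher and 3 lower (Pdia5, Uggt2 and Dnajc1, the last pair named after their values had been seen, like other genes below marked as seen), against 2.46% and 7.2% of all genes, and groups did not overlap for 0 higher and 6 lower, against 4.97% and 10.2%. Without CD 4 the median was -0.04 and 1 gene was lower at that p, and without CD 2 the median was -0.13. Without CD 1 the median was -0.27, with 30 genes fitted lower and 5 lower at that p. Without HFD 3 it was -0.26, with 28 fitted lower and 2 lower at that p. It was -0.17 without HFD 2 and -0.18 without HFD 4. The most abundant gene of the list outside the set was P4hb, the beta subunit of prolyl 4-hydroxylase and a disulfide isomerase, at a mean FPKM of 105. The smallest p among lower genes was that of Pdia5, another disulfide isomerase, at 8.94, 14.7 and 26.3 normalised CPM in CD 1, CD 2 and CD 4 and 5.38, 6.46 and 7.57 in HFD 2, HFD 3 and HFD 4. All its HFD libraries were below all CD libraries (log2 fold change -1.36 ± 0.41, SE, edgeR adjusted p = 0.466, and -0.81 without CD 4). Among higher genes it was Cnpy3, a chaperone of Toll-like receptors, at 0.27 ± 0.24 (SE), or 0.11 without HFD 3, 0.16 without CD 1 and 0.41 without CD 2.

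The ERSE letters stood in 8 of the 30 genes, of 36 in that list, that had a RefSeq promoter, namely Hspa5, Hsp90b1, Calr, Canx, Creld2, Dnajc3, Ero1b (Ero1lb in the table) and Pdia6. The log2 fold changes of the 8 ran from -0.45 to 0.22 with a median of -0.33, against -0.24 over the whole list. Of the 8, 6 were below 0, against 66.7% of the whole list and 52.5% of all genes. Groups did not overlap for 0 of the 8, against 15.2% of all genes. The core TGATGNAA stood in 11 of the 28 promoters found for the ATF4 and CHOP target list, against 3.97% of all promoters, and neither ERSE form stood in any of the 28. The list holds genes chosen as targets of these factors, so its share may follow from that choice and is a description only.

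Of the UPR sensor and transducer list, 16 genes were tested, 6 higher and 10 lower with a median of -0.21. At an unadjusted p under 0.05 there were 0 higher and 2 lower, against 2.46% and 7.2% of all genes. Groups did not overlap for 2 higher (Nfe2l2 and, as seen, Ern2) and 3 lower (Creb3l1 and, as seen, Creb3l2 and Mbtps1), against 4.97% and 10.2%. Without CD 4 the median of the list was -0.02, with 7 higher and 9 lower. With another library left out it ran from -0.26 without HFD 3 to -0.14 without HFD 4. The lower pair at that p were Creb3l1 and Creb3l2, ATF6-like factors of the ER membrane; Creb3l1, also called OASIS, acts on the type I collagen gene in mouse osteoblasts. Creb3l1 stood at 18.4, 48.0 and 169 normalised CPM in CD 1, CD 2 and CD 4 and at 7.88, 6.08 and 16.0 in HFD 2, HFD 3 and HFD 4, and all HFD libraries were below all CD libraries. Its log2 fold change was -2.98 ± 0.82 (SE), with an adjusted p of 0.466 in edgeR and 0.0188 in DESeq2, and it was -1.67 without CD 4 and -0.70 with the osteoblast markers as a covariate. Creb3l2, singled out after its values had been seen, was at -1.06 ± 0.29 (SE), and at -0.73 without CD 4. Nfe2l2, which encodes the oxidative stress factor NRF2 and is a known PERK substrate, had the smallest p among the higher genes and the groups did not overlap, at 62.6, 66.9 and 66.3 in CD 1, CD 2 and CD 4 and 82.0, 89.0 and 71.9 in HFD 2, HFD 3 and HFD 4 (log2 fold change 0.31 ± 0.20, SE, edgeR unadjusted p = 0.156).

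The ATF4 and CHOP target list had 32 of 33 genes tested, 13 higher and 19 lower with a median of -0.11, and 0 higher and 5 lower at an unadjusted p under 0.05 (Ddit4, Nupr1 and, as seen, Atf3, Pycr1 and Vegfa), against 2.46% and 7.2% of all genes. Without CD 4 only 1 gene was lower at that p and the median was -0.07, and the median ran from -0.18 without HFD 3 to -0.04 without HFD 4. With another library left out, 3 to 5 genes were lower at that p. Ddit4, which encodes the mTORC1 inhibitor REDD1, had the smallest p of the 7 lists, with all HFD libraries below all CD libraries. Its normalised CPM was 38.4, 53.9 and 97.5 in CD 1, CD 2 and CD 4 and 14.7, 12.4 and 24.7 in HFD 2, HFD 3 and HFD 4. Ddit4 had a log2 fold change of -1.88 ± 0.42 (SE), with an adjusted p of 0.466 in edgeR and 0.0176 in DESeq2, and -0.97 with the osteoblast markers as a covariate. Among the most abundant genes of the list, Ppp1r15a, whose product GADD34 restores translation after PERK, stood at a mean FPKM of 49.5, Cebpb at 45.6 and Nupr1 at 37.1. Nupr1 owed its mean to CD 4, with 465 normalised CPM there against 23.2 to 63.5 in the other 5 libraries, and its log2 fold change of -2.62 was -0.65 without CD 4. Gdf15, a secreted stress factor, had the smallest p among higher genes at 0.78 ± 0.55 (log2 fold change ± SE), which was 1.23 without CD 4 and 0.38 without CD 1.

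The XBP1 secretory pathway list had 41 genes tested, 12 higher and 29 lower with a median of -0.24, and 0 higher and 4 lower at an unadjusted p under 0.05 (Kdelr3 and, as seen, Sec24d, Sec31a and Golgb1), against 2.46% and 7.2% of all genes. Groups did not overlap for 0 higher and 7 lower, against 4.97% and 10.2%. Without CD 4 the median was -0.08 and 0 genes were lower at that p. Without CD 1 it was -0.26 with 7 lower, and without CD 2 it was -0.28 with 6 lower and 1 higher. Without HFD 2, HFD 3 or HFD 4 it was -0.29, -0.26 or -0.18, with 1 lower gene in each. Kdelr3, a receptor that returns escaped ER proteins, had the smallest p among the lower genes, at 9.88, 21.2 and 79.1 normalised CPM in CD 1, CD 2 and CD 4 and 5.45 and 3.25 in HFD 2 and HFD 3. HFD 4 lay just above CD 1, and the log2 fold change was -2.56 ± 0.80 (SE, edgeR adjusted p = 0.466), or -1.25 without CD 4. Sec11c, a catalytic subunit of the signal peptidase, had the smallest p among the higher genes, with 32.6, 54.1 and 36.3 in CD 1, CD 2 and CD 4 and 69.0, 90.1 and 45.2 in HFD 2, HFD 3 and HFD 4 (log2 fold change 0.73 ± 0.32, SE, edgeR unadjusted p = 0.0564, and 0.48 without HFD 3). Only CD 2 reached into the HFD range. The most abundant genes of the list were Ssr3, Srp14 and Ddost, which act in translocation and N-glycosylation, at mean FPKM of 47.0, 40.6 and 40.0.

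For ERAD, 25 genes were tested, 13 higher and 12 lower with a median of 0.02, and 0 higher and 1 lower (Edem3) at an unadjusted p under 0.05, against 2.46% and 7.2% of all genes. Groups did not overlap for 1 higher (Derl3) and 2 lower (Edem3 and, as seen, Sel1l, the scaffold of the HRD1 ligase), against 4.97% and 10.2%. The median of the list ran from -0.0030 without HFD 2 to 0.10 without CD 1. Beside Herpud1 the abundant genes were Vcp, the ATPase that pulls clients from the membrane, at a mean FPKM of 46.2, and Os9, a lectin of misfolded glycoproteins, at 29.1. Derl3, which is also among the plasma cell markers used here, stood at 3.20, 2.80 and 2.12 normalised CPM in CD 1, CD 2 and CD 4 and at 4.10, 5.81 and 3.30 in HFD 2, HFD 3 and HFD 4, and the groups did not overlap (log2 fold change 0.70 ± 0.36, SE, edgeR unadjusted p = 0.0906). It was 0.45 without HFD 3 and 0.21 with the osteoblast covariate. Edem3, which trims mannose from clients, stood at 40.4, 33.5 and 67.4 against 32.0, 4.58 and 8.37 in the same order (log2 fold change -1.65 ± 0.70, SE, edgeR unadjusted p = 0.0488, and -2.86 without HFD 2). HFD 2 came close to CD 2, and the other 2 HFD libraries were far below.

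The folding systems outside the ER gave the counterpart. The cytosolic heat shock list had 20 genes tested, 7 higher and 13 lower with a median of -0.17, and the mitochondrial chaperone and protease list 14, with 6 higher and 8 lower and a median of -0.04. At an unadjusted p under 0.05 in edgeR there were 0 genes in either, against 9.66% of all genes. The cytosolic median was -0.02 without CD 1 and -0.05 without HFD 3, and the mitochondrial one was 0.25 and 0.08 without the same libraries and -0.13 without CD 2. Hsp90ab1 at a mean FPKM of 287 and Hspa8 at 199.7 were above every ER chaperone, and Hspb1 stood at 70.8. In mitochondria Hspd1 stood at 53.5, Hspa9 at 47.1 and Hspe1 at 27.9. The genes with the smallest p were Hspa1a, the inducible HSP70, at -0.85 ± 0.48 (-0.47 without HFD 3) and Cct5, a chaperonin subunit, at 0.12 ± 0.23 (0.016 without HFD 3 and 0.23 without CD 2) in the cytosol. In mitochondria they were the proteases Spg7 at -0.35 ± 0.31 and Htra2 at 0.52 ± 0.31 (log2 fold change ± SE), which were -0.0043 without CD 1 and 0.29 without HFD 3. On library totals alone, where the median of all genes tested was 0.24, the list medians were 0.01 for ER chaperones, 0.30 for ERAD, 0.06 for sensors, 0.15 for ATF4 and CHOP targets, 0.01 for XBP1 targets, 0.10 for cytosolic and 0.28 for mitochondrial chaperones.

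**Figure D4:**
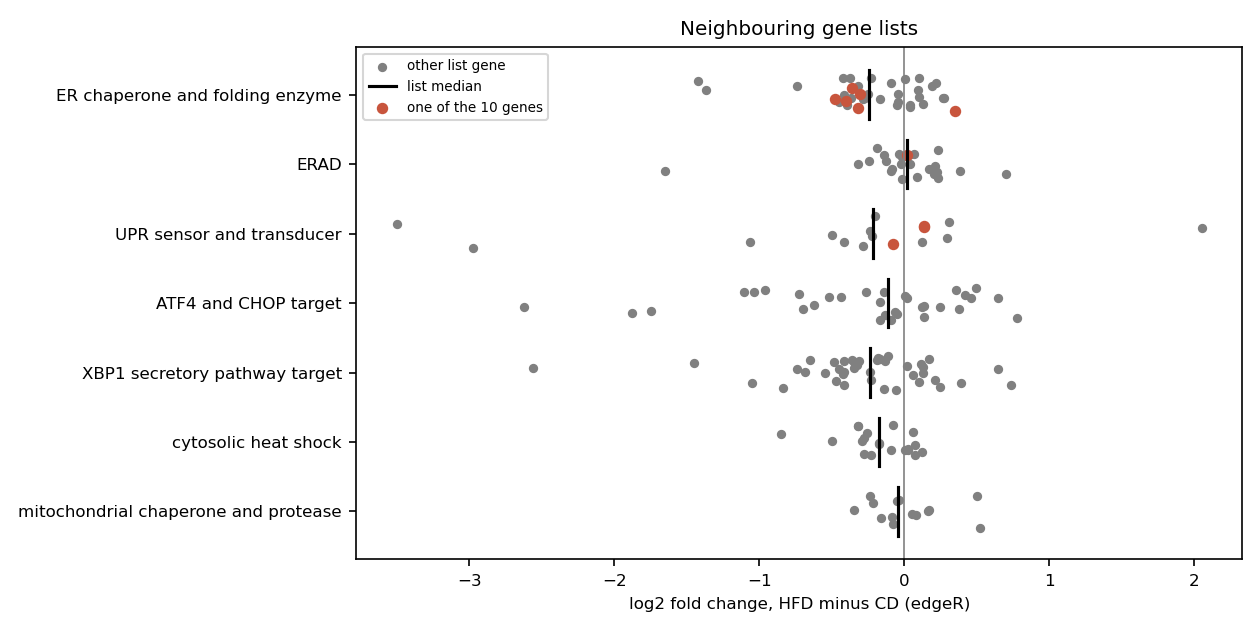
Log2 fold change, HFD minus CD, from edgeR (horizontal axis) of every gene tested in 7 neighbouring lists (1 row each, points spread vertically for visibility), with the 10 genes of the set in red and a bar at each list median. The red points lie between -0.48 and 0.35, and the list medians between -0.24 (ER chaperones and XBP1 targets) and 0.02 (ERAD).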

How the data were processed

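Bulk RNA-seq of 6 libraries was used. The authors deposited 1 table with counts per gene, and FPKM values that in each library were a constant per gene times the count (within 0.155% for the 10 genes). Named without roles in the notes of the submitters are edgeR, DESeq2, StringTie 1.3.4d, UMI-tools, HISAT2 2.0.4 and cutadapt 1.9, while the methods of the study name another aligner and counter, so the counting, its use of strand and any removal of duplicates are not settled. Groups came from the sample titles. Counts were tested in R 4.3.3 with edgeR 4.0.16 (quasi-likelihood test after TMM scaling, genes kept by filterByExpr at minimum count 10, no covariate, Benjamini-Hochberg adjustment, threshold 0.05), which left 19831 genes. The SE was taken from the fold change and its F value. DESeq2 1.42.0 and limma 3.58.1 (log2(FPKM + 1), FPKM of at least 0.5 in 3 libraries) were alternatives, and 22 alternatives were run in all, 1 of them, leaving out CD 1 and HFD 4, added after seeing the data. The script was tested on simulated data with 200 changed genes. No 2 libraries were identical. Permuting 3 against 3 libraries exactly allows no p under 0.1.

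The 10 genes, the pathway lists and the marker lists were chosen with earlier results of these data known. Named by rule are the 10 genes and, for each list, its 3 most abundant genes and, in each direction, the gene with the smallest edgeR p. Of the listed symbols, 8 were absent from the table under that name. All 10 genes had the same start and end in GENCODE M21 (GRCm38). Promoters were RefSeq sequences of GRCm38.p6. The motif search of the ERAD, XBP1, cytosolic and mitochondrial lists was void, as under 80% of their genes had a promoter entry.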

Additional observations from a re-analysis of the deposited data

How the results depend on the processing

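None of the 10 genes was called under any of the 22 alternatives. The number of genes called over the table was 0 in edgeR, 303 with DESeq2, 10 with limma on log2(FPKM + 1), 7 with limma on log2(FPKM + 0.1), and 0 to 24 when a library was left out, the 24 without CD 4. The median of the 10 log2 fold changes (-0.19) was 0.058 on library totals alone, 0.096 in limma on log2(FPKM + 1) with and without its filter, 0.098 with a pseudocount of 0.1, and -0.046 with the osteoblast covariate, against medians over all genes of 0.24, 0.19, 0.031, 0.27 and -0.048; it ran from -0.18 to -0.073 when a library was left out. Atf4 turned positive on library totals (0.17) and in the 3 limma fits (0.20). With the osteoblast covariate Hsp90b1 was 0.0075, Pdia4 0.22, Ddit3 -0.041, Herpud1 -0.11, Nupr1 0.029 and Cct5 -0.00043. With the intestinal covariate Xbp1 was -0.0073, Dnajb9 0.022, Sdf2l1 -0.34, Cnpy3 -0.11, Gdf15 -0.65, Hspa1a 0.075 and Spg7 0.52. With the plasma cell covariate Sdf2l1 was -0.20, Cnpy3 -0.024 and Cct5 -0.093. Herpud1 ran from -0.083 to 0.19 when a library was left out, and Spg7 was 0.038 with CD 4 alone against HFD. The cause of these turns was not tested. The replicate numbers were not shown to pair the libraries (correlation of deviations -0.16 for number 2 and 0.18 for number 4). With the replicate block 0 genes were called, the median was -0.12, and Sdf2l1 (-0.11), Cnpy3 (-0.0039), Cct5 (-0.0041) and Spg7 (0.14) changed sign. In that fit CD 1 and HFD 3 have no partner. The estimate rests on CD 2 and CD 4 against HFD 2 and HFD 4. It leaves out CD 1, the lowest library for Hsp90b1 and Pdia4, and little remains to estimate the spread. At an unadjusted p under 0.05 the block fit had 3 of the 10 genes (Hsp90b1, Calr and Pdia4, all lower). It had 12 of 36 ER chaperone genes, all lower (35 of the 36 fitted lower), against 8.16% of all genes lower. These counts are a description, and no conclusion is drawn from them. Among the other fits with more than 1 library per group, only Pdia4 of the 10 was at that p, and it was lower. This held without CD 1, without CD 1 and HFD 4 and with the intestinal covariate. In these fits 6.82%, 8.64% and 7.3% of all genes were lower at that p, in the same order. Counts of 350 or more per library leave sampling error small for the 10 genes, and the spread between 3 libraries sets their precision.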
